A study of Mus musculus with 4 samples.

Results

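The loci of 10 immediate early genes were examined for binding of topoisomerase IIβ (TOP2B) in mouse thymocytes. The genes were *Fos*, *Fosb*, *Jun*, *Junb*, *Egr1*, *Egr2*, *Egr3*, *Nr4a1*, *Ier2* and *Dusp1*, 10 of the 22367 protein-coding genes of the GENCODE M1 annotation. They were chosen by name as rapidly induced genes, and a TOP2B peak was assigned to a gene if its centre lay inside the gene or within 25 kb of either end. With this rule 14 of the 17754 peaks obtained with the Santa Cruz antibody belonged to the loci, and 0 of the 3564 peaks obtained with the Novus antibody. The Santa Cruz peaks were spread over 7 genes, while *Egr2*, *Nr4a1* and *Dusp1* had none.

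TOP2B ChIPseq was performed on thymocytes released mechanically from the thymus of wild-type C57BL/6 mice of 4 to 6 weeks of age, with fixation in 1% formaldehyde for 10 min and libraries made by ChIPmentation, in which a transposase adds the adaptors to chromatin held on beads. All libraries share this genotype, strain and tissue, and no stimulation or drug is described for them. There was 1 library for each of the 2 TOP2B antibodies, and the TOP2A and IgG libraries of the same series were not analysed here. The peak lists give positions only, so that the thymocyte identity of the cells rests on the labels, the depth behind a peak is unknown, and no replicate spread or test between antibodies can be given.

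Immediate early genes are transcribed within minutes of a signal, without a need for new protein synthesis, and many of them encode transcription factors. In thymocytes and T cells they respond to stimulation of the antigen receptor through calcium and MAP kinase pathways, with SRF and its ternary complex partners, which bind the CArG box, and CREB, which binds the cAMP response element (CRE), as classical activators at their promoters. TOP2B relaxes DNA by passing a duplex through a transient double-strand break, and TOP2-mediated breaks at promoters and 3′ ends of such genes are known from other systems.

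Sequences of 4 Santa Cruz peaks are shown, those closest to the start of *Ier2*, *Jun*, *Junb* and *Egr3*, in order of increasing distance from it. They are from mm9, on the strand of transcription of the gene, in 5′ to 3′ direction. Capitals mark matches to the CTCF core motif (up to 1 mismatch), to the CRE (TGACGTCA) or to the AP-1 site (TGANTCA). The peaks closest to the start of *Fos* and *Fosb*, whose sequences hold none of these matches, and the peaks of *Egr1* are not shown. The *Ier2* sequence runs on from the peak to the last base before the start of transcription, is found at chr8:87186752-87186978 on the minus strand, and holds a CTCF core match followed by a CRE. The *Jun* peak is at chr4:94719899-94720085 (minus strand) and has no match. The *Junb* peak at chr8:87499496-87499682 (minus strand) has a CTCF core match. The *Egr3* peak at chr14:70496208-70496394 (plus strand) has an AP-1 site followed by a CTCF core match.
Ier2: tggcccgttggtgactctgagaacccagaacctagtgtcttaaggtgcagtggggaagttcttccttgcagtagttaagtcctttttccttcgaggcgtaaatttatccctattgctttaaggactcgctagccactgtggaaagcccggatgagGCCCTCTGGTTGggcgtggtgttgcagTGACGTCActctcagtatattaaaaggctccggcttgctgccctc
Jun: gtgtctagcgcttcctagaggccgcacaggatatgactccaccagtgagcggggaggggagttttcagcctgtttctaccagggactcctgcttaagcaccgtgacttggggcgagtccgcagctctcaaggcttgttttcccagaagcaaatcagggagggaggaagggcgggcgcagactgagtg
Junb: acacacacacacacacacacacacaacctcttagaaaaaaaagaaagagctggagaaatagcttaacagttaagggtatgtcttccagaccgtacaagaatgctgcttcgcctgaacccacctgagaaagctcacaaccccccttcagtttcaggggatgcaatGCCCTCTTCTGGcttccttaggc
Egr3: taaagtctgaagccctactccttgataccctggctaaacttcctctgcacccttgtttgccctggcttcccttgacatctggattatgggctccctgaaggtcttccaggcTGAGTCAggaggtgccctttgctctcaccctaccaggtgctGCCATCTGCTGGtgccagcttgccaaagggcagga

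The members are short genes, of 1.52 to 7.95 kb, on 9 chromosomes, and 9 of 10 have a CpG-rich start. *Junb* and *Ier2* share chromosome 8 but lie 314 kb apart, so that no peak was counted for both. The plot of the windows gives the position of each Santa Cruz peak relative to the gene. Of the 14 peaks, 2 lay inside a member, 6 upstream and 6 downstream of it. Of these, 7 were inside or within 5 kb of the gene, and the other 7 were between 5 and 25 kb away. A Santa Cruz peak inside or within 5 kb was found for 4 of 10 members and for 35.8% of all protein-coding genes. The nearest protein-coding start was that of the member for 9 peaks and that of another gene for 5.

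**Figure D1:**
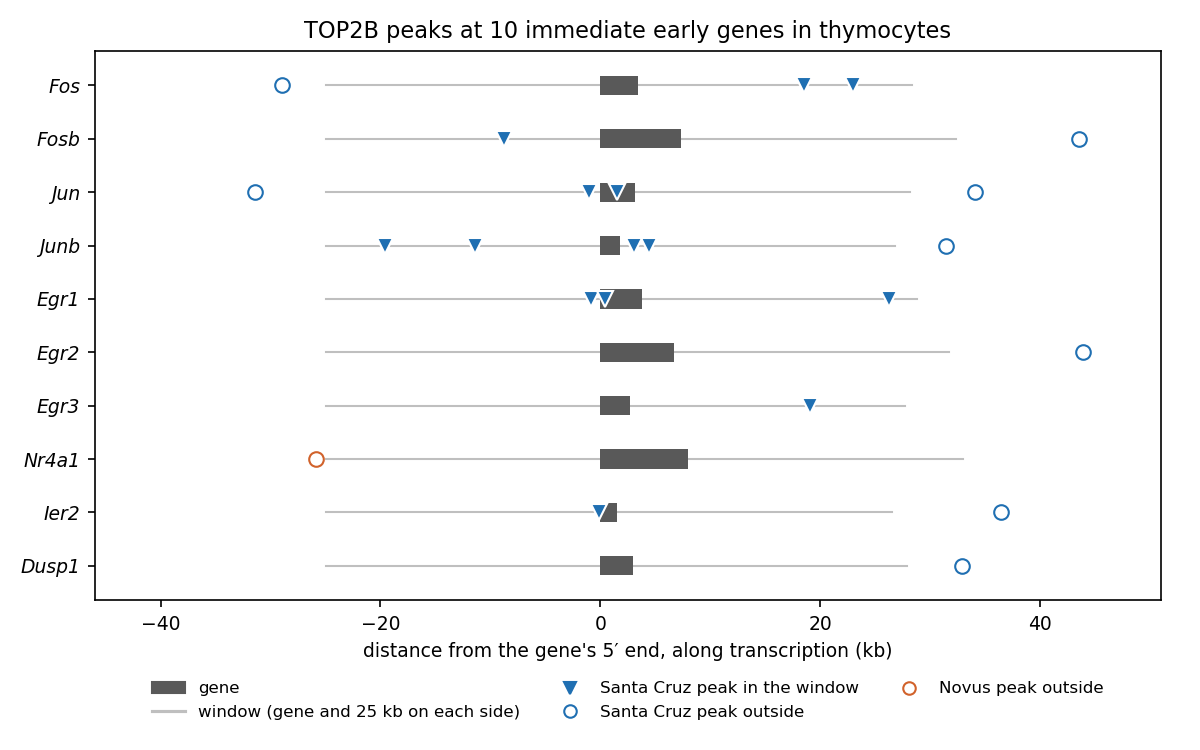
Positions of TOP2B peaks around the 10 immediate early genes, with the distance from the start of transcription in kb on the x axis and the direction of transcription to the right. Triangles are peaks in the windows and open circles the nearest ones outside, the 14 Santa Cruz peaks fall at 7 genes, and no Novus peak falls in any window of 25 kb each side.

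Among the genes of the AP-1 family, which dimerise to form the AP-1 transcription factor, *Jun* had peaks closest to the gene. *Fos* (chromosome 12, 86814840 to 86818223, plus strand), the prototype member, had 2 Santa Cruz peaks, both beyond its 3′ end and between genes. They were at 86833299 to 86833485 and 86837733 to 86837919, that is 15.2 and 19.6 kb beyond the end, and 4.43 kb from each other. No other protein-coding start was closer to them than that of *Fos*. *Fosb* (chromosome 7, 19888070 to 19895394, minus strand), a close relative of *Fos*, had a single peak, 8.75 kb upstream of its start at 19904055 to 19904241, again between genes.

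*Jun* (chromosome 4, 94715725 to 94718913, minus strand), the usual partner of FOS proteins, had 1 peak in its coding exon at 94717333 to 94717519 and 1 at 94719899 to 94720085, 1.08 kb upstream. The upstream peak, whose sequence is given above, falls in an exon of the noncoding transcript *BC042782*, which runs in the opposite direction from *Jun*. The peaks were 2.57 kb apart and neither was within 1 kb of an annotated *Jun* start. *Jun* therefore had Santa Cruz peaks on both sides of its start but did not count as a gene with a peak at the start.

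*Junb* (chromosome 8, 87500811 to 87502617, minus strand), a JUN relative that also dimerises with FOS proteins, had 4 peaks, the most of the 10 genes. At least 4 Santa Cruz peaks were found for 5.78% of all protein-coding genes. Downstream, the peak at 87499496 to 87499682 was 1.22 kb beyond the 3′ end of *Junb*, between genes, and the peak at 87498134 to 87498320 was 2.58 kb beyond it, in the 3′ UTR of *Prdx2*, the gene of an antioxidant enzyme. Upstream, the peak at 87513965 to 87514151 was 11.4 kb from *Junb* and 436 bp from the start of *Hook2*, and the peak at 87522133 to 87522319 was 19.6 kb away in a *Hook2* intron. *Hook2* encodes an adaptor of microtubule transport. Of the 4 peaks, only the one 1.22 kb beyond the 3′ end had the *Junb* start as its nearest protein-coding start.

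The early growth response genes encode zinc-finger transcription factors that act downstream of the pre-TCR and TCR, and they differed in their peaks. *Egr1* (chromosome 18, 35020861 to 35024638, plus strand) had 3 Santa Cruz peaks, a number reached by 13.0% of protein-coding genes. The first was 880 bp upstream of the start at 35019888 to 35020074, and the second was centred 417 bp inside the gene at 35021185 to 35021371, in the coding exon. The third, at 35047055 to 35047241, was 22.5 kb beyond the 3′ end and was the peak closest to the limit of 25 kb on the inside. Its nearest protein-coding start was *Gm17507*, at 22.4 kb. The peaks on either side of the *Egr1* start were 1.30 kb apart.

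*Egr3* (chromosome 14, 70477252 to 70479964, plus strand) had 1 peak, 16.3 kb beyond its 3′ end and between genes, whose nearest start was that of *Bin3* at 3.65 kb. *Egr2* (chromosome 10, 66998223 to 67004936, plus strand) had none in its window. Its closest Santa Cruz peak was at 67042027 to 67042213, 37.2 kb away. The count of Santa Cruz peaks in the window was therefore 3 for *Egr1*, 1 for *Egr3* and 0 for *Egr2*.

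*Ier2* (chromosome 8, 87185230 to 87186751, minus strand), which encodes a nuclear protein of the early response to growth factors, had the peak closest to a start among the members. Its only peak, at 87186792 to 87186978, was centred 134 bp upstream and ended at position -41 from the start. *Nr4a1* (chromosome 15, 101097277 to 101105223, plus strand), which encodes the orphan nuclear receptor NUR77 and is a standard reporter of TCR signals, had the most distant Santa Cruz peak of the 10 genes, 121 kb away. *Dusp1* (chromosome 17, 26642535 to 26645464, minus strand), a phosphatase that switches off MAP kinases, had its nearest one 30 kb away at 26612402 to 26612588, with the *Dusp1* start as the nearest protein-coding start. The Santa Cruz peaks just outside the limit were this one and others 29.0 kb upstream of *Fos* and 29.6 kb beyond the 3′ end of *Junb*.

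The share of members with a Santa Cruz peak was 70.0% (7 of 10, exact 95% interval 34.8 to 93.3%), beside 55.1% of all protein-coding genes, a value inside the interval. For genes with a CpG-rich start, which 9 of the members have, the share was 69.8%, and for genes under 10 kb, which the members all are, it was 39.8%. The mean number of Santa Cruz peaks per gene was 1.40 for the members, 1.08 for all protein-coding genes, 1.45 for those with a CpG-rich start and 0.651 for those under 10 kb. The median distance from the gene to the nearest Santa Cruz peak was 12 kb for the members and 18.3 kb for all protein-coding genes. For genes with a CpG-rich start this distance was 5.41 kb, and for those under 10 kb it was 41.1 kb. The interval of the members holds the share of each of these groups, so that 10 genes do not tell them apart.

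No Novus peak was found at any of the members (0 of 10, exact upper limit 30.8%), whereas 19.3% of all protein-coding genes had one. That share corresponds to 1.93 genes in 10, and with 12.4% for genes under 10 kb and 26.6% for genes with a CpG-rich start each background share is below the limit that 0 of 10 allows. The absence was therefore not distinguishable from the background with 10 genes. The nearest Novus peak was closest for *Nr4a1*, at 101071326 to 101071520, which is 25.9 kb upstream and just outside the limit, between genes and 16.8 kb from the start of *Grasp*. It did not overlap a Santa Cruz peak. *Nr4a1* was the 1 gene of 10 whose nearest Novus peak was closer than its nearest Santa Cruz peak.

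The other distances to a Novus peak were larger. For *Egr3* it was 55.9 kb (70421234 to 70421428, in an intron of *Pebp4*) and for *Fosb* 63.0 kb (19824927 to 19825121, in an intron of *Opa3*, where it overlapped a Santa Cruz peak). For *Egr2* it was 180 kb, for *Dusp1* 252 kb, for *Jun* and *Egr1* 274 kb each, and for *Fos* 360 kb. *Ier2*, at 475 kb, and *Junb*, at 790 kb, shared the same nearest Novus peak, at 86710467 to 86710661 of chromosome 8. The median over the members was 263 kb, beside 153 kb for all protein-coding genes. It was 222 kb for genes under 10 kb and 98.6 kb for genes with a CpG-rich start. The Santa Cruz list has 4.98 times as many peaks as the Novus list, so that the distances of each antibody are read here only against its own background.

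**Figure D2:**
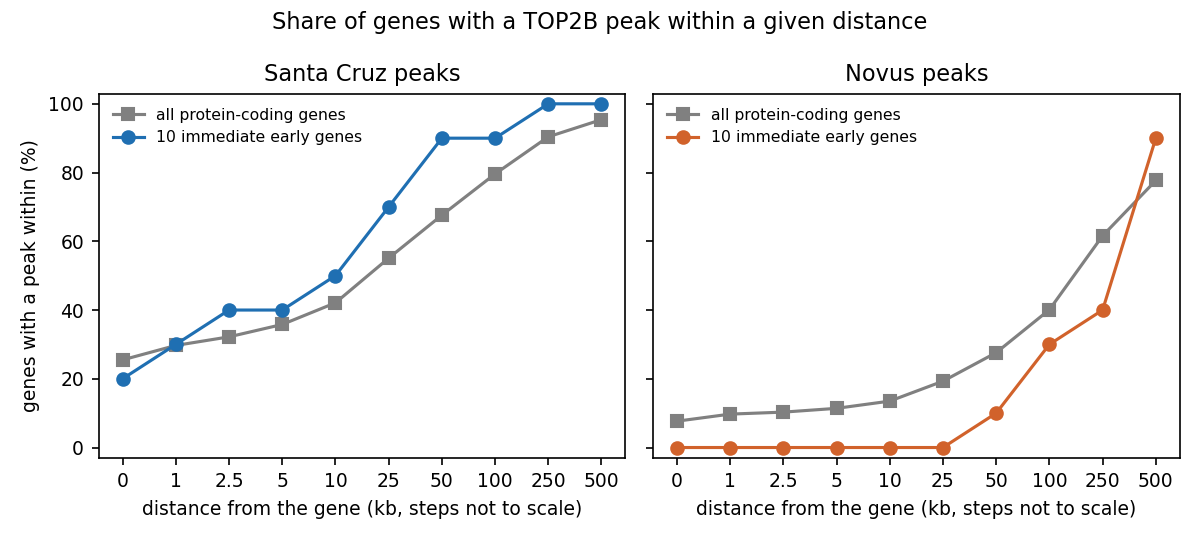
Share of genes (percent) with a peak centre within a given distance (kb) of the gene, for the 10 members and for all protein-coding genes, by antibody. With Santa Cruz 5 of 10 members had a peak within 10 kb and 9 within 50 kb, while with Novus the first of them appears at 50 kb and 9 of 10 are reached at 500 kb.

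Peaks called with both antibodies, which share at least 1 bp, were absent from the loci. Of all protein-coding genes 6.22% had such a common peak in the window, against 0 of 10 members. None of the 14 Santa Cruz peaks overlapped a Novus peak (exact upper limit 23.2%), beside 5.65% of the whole Santa Cruz list, which is below that limit. The 14 peaks come from 7 loci and are not independent, which the limit does not take into account. Of the whole Novus list 27.9% overlapped a Santa Cruz peak, a share of Novus peaks that has no counterpart at the loci. The distance from a Santa Cruz peak of the loci to the nearest Novus peak ranged from 71.8 to 812 kb with a median of 310 kb, and over the whole Santa Cruz list the quartiles were 36.4, 127 and 349 kb. All peaks described here for the 10 members thus rest on the Santa Cruz antibody alone. The study counted as TOP2B peaks only those called with both antibodies, and none of the 14 meets that definition.

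At the start of transcription, within 1 kb, 2 of 10 members had a Santa Cruz peak (20%, exact 95% interval 2.52 to 55.6%), namely *Egr1* and *Ier2*. The background was 13.1% of all protein-coding genes and 20.8% of those with a CpG-rich start. No member had a Novus peak there, beside 5.32% of all protein-coding genes. At the 3′ end, within 1 kb, no member had a Santa Cruz peak or a Novus peak, and the backgrounds were 2.42% and 0.443%. The *Junb* peak 1.22 kb beyond the 3′ end was the closest to this limit. With backgrounds this low a count of 0 in 10 genes carries little information about 3′ ends.

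Other genes of the same class were examined in a list of 48 further immediate early genes. A Santa Cruz peak was found in the window of 29 of them (60.4%) and a Novus peak in that of 6 (12.5%), namely *Jund*, *Ier5l*, *Dusp4*, *Klf4*, *Nfkbiz* and *Rgs2*, beside the 55.1% and 19.3% of all protein-coding genes. Common peaks were in the windows of 3 (6.25%, beside 6.22% of all protein-coding genes), *Klf4*, *Nfkbiz* and *Rgs2*. A Santa Cruz peak lay at the start of 11 (22.9%, beside 13.1% of all protein-coding genes and 20.8% of those with a CpG-rich start), which included *Nr4a2*, the closest relative of *Nr4a1*, as well as *Arc*, *Klf2*, *Klf4*, *Klf6*, *Per1* and *Irf1*, and a Novus peak at the start of 2 (4.17%, beside 5.32%). These were *Klf4*, a zinc-finger factor, and *Rgs2*, a regulator of G protein signalling. None had a peak of either list within 1 kb of the 3′ end (exact upper limit 7.40%). The shares of all protein-coding genes, 2.42% for Santa Cruz and 0.443% for Novus, are both below that limit.

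At *Klf4* (chromosome 4) the Novus peak at 55545309 to 55545503 was centred 59 bp from the start and shared 43 bp with the Santa Cruz peak at 55545165 to 55545351. At *Rgs2* (chromosome 1) the Novus peak at 145851465 to 145851659 was 271 bp from the start and shared 180 bp with the Santa Cruz peak at 145851458 to 145851644. Common peaks were at the start of 2 of the 48 other immediate early genes and of 0 of the 10 members. A Novus peak, common or not, was at the start of 5.32% of all protein-coding genes. The share of all protein-coding genes with a common peak at a start was not determined, so these counts are not read as particular to either list. A count of 0 in 10 genes carries little information here. The difference between the lists, 0 of 10 against 2 of 48 genes with a Novus peak at the start, was not tested.

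**Figure D3:**
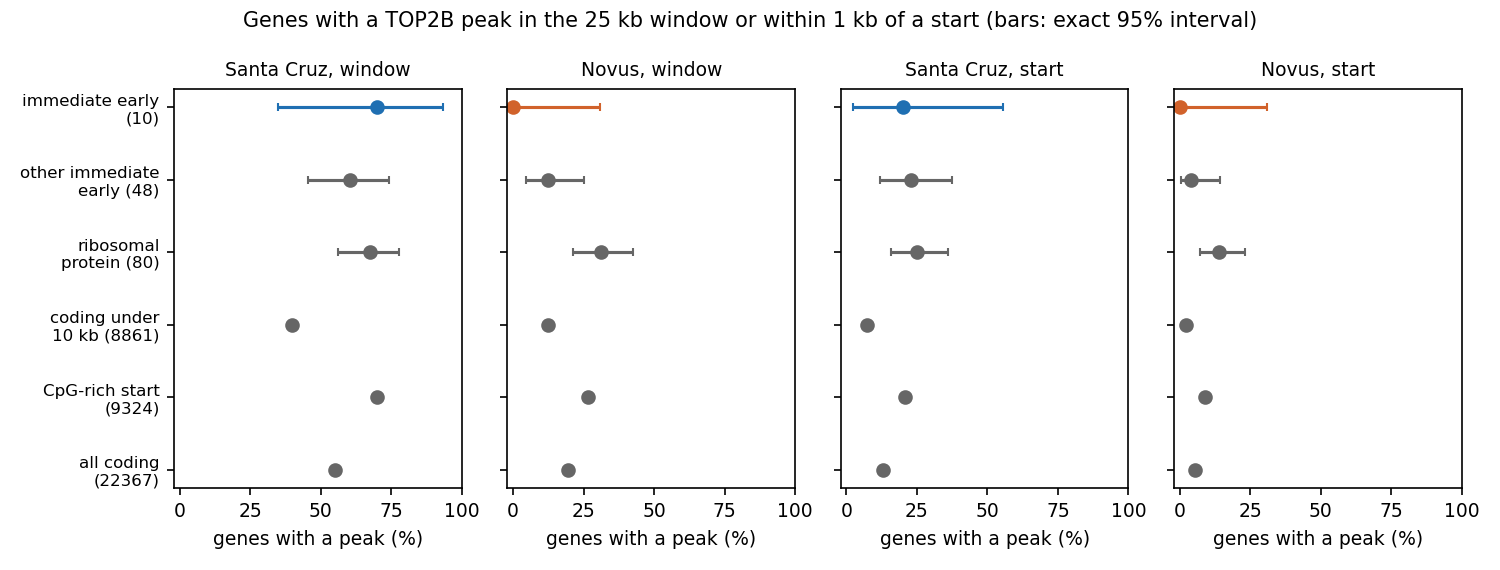
Percent of genes with a TOP2B peak in the window and within 1 kb of a start, by antibody, for the members, other immediate early and ribosomal protein genes, and the backgrounds, with exact 95% intervals as bars for the lists. In the windows the interval of the members spans 34.8 to 93.3% for Santa Cruz and reaches up to 30.8% for Novus, and both hold the background values.

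The base composition of the peaks was measured over 500 bp around each centre. The median GC content of the 14 peaks was 53.2%, beside quartiles of 43.2, 47.4 and 52.0% for the whole Santa Cruz list, and the median ratio of observed to expected CpG was 0.401, beside quartiles of 0.128, 0.217 and 0.352. The 14 peaks come from 7 loci with up to 4 peaks each, so that they are not independent, and whether they differ from the list was not tested. The highest values were those of the *Egr1* peak 22.5 kb beyond the 3′ end (GC 71.8%, CpG ratio 0.820) and of the *Jun* peak in the coding exon (69.0% and 0.790). The lowest CpG ratio was that of the *Egr3* peak, 0.0292.

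**Figure D4:**
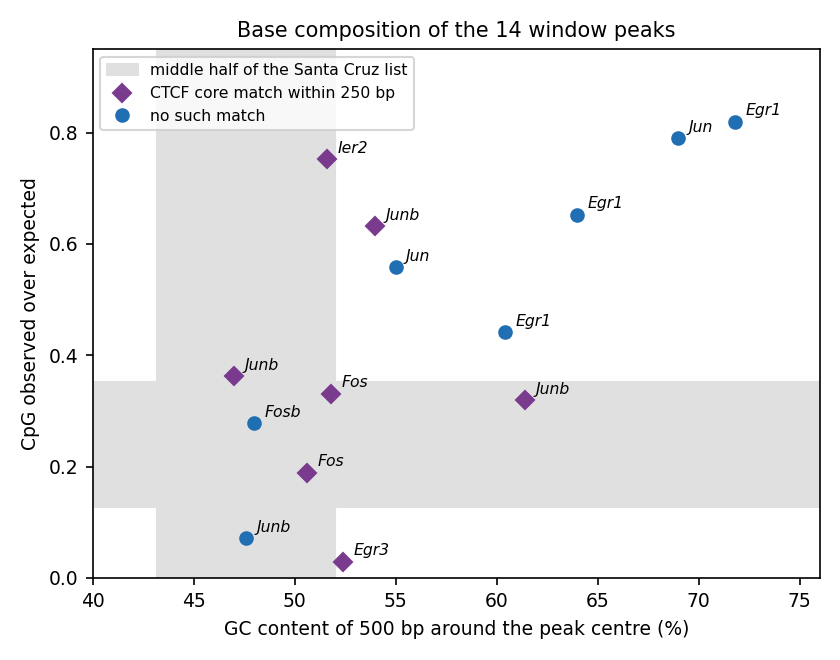
GC content (percent) against the ratio of observed to expected CpG of the 14 Santa Cruz peaks, each over 500 bp around its centre, with the range between the quartiles of the whole list shaded. Peaks of *Egr1* and *Jun* reach a CpG ratio of 0.820 and 0.790, and the *Egr3* peak lies at 0.0292.

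By annotated feature, 4 of the 14 peaks were in promoters (within 1 kb of a protein-coding start), 3 in exons, 1 in an intron and 6 between genes. Over the whole Santa Cruz list 15.2% of peaks were in promoters, 4.44% in exons, 40.5% in introns and 39.9% between genes. The 4 promoter peaks belonged to *Egr1* (both peaks near its start), *Ier2* and *Hook2*. The exon peaks were in *Jun*, in the noncoding transcript *BC042782* next to *Jun*, and in *Prdx2* next to *Junb*.

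A match to the CTCF core motif, the recognition sequence of the insulator protein CTCF, was searched for on both strands within 250 bp of each centre. It was present, with at most 1 mismatch, at 7 of the 14 peaks (50%, exact 95% interval 23.0 to 77.0%), and at 15.9% of the Santa Cruz list and 25.5% of the Novus list. The 7 peaks came from 4 loci and are not independent of each other, since 2 were at *Fos* and 3 at *Junb*. Matches without a mismatch were found at the *Fos* peak 19.6 kb beyond the 3′ end (48 bp from its centre), at the *Junb* peak next to *Hook2* (164 bp) and at the *Egr3* peak (64 bp). With 1 mismatch the motif was found at the other *Fos* peak (120 bp), at the *Junb* peaks 1.22 kb beyond the 3′ end (76 bp) and in the *Hook2* intron (236 bp), and at *Ier2* (68 bp). The *Jun*, *Fosb* and *Egr1* peaks had none. A match is a description of the sequence, and CTCF binding was not analysed here.

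Motifs of signal-dependent factors were searched on both strands over the length of each peak. The AP-1 site was found in 1 of 14 peaks, that of *Egr3*, and in 5.37% of the Santa Cruz list. The EGR site (GCGNGGGCG) was found in 2, the *Egr1* peak centred 417 bp inside the gene and the one 22.5 kb beyond its end, and in 0.851% of the list, and both of these peaks are at 1 locus. The CArG box, the CRE and the ETS site (CCGGAAG) were in none of the 14, and in 0.817%, 0.248% and 2.15% of the list.

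The same motifs were searched from 1000 bp before to 50 bp after the start of each gene. A CArG box was present at 4 of 10 members, *Fos*, *Fosb*, *Egr1* and *Egr3*, and at 5.74% of all protein-coding genes. A CRE was present at 2, *Ier2* and *Dusp1*, and at 2.97% of all genes. The EGR site was found at 4 (*Fosb*, *Jun*, *Egr1* and *Nr4a1*, background 9.32%), the ETS site at 2 (*Jun* and *Egr1*, background 15.1%) and the AP-1 site at 1 (*Fos*, background 24.4%). In the shorter stretch from 250 bp before to 50 bp after the start, the CArG box remained at 1 member, *Egr1* (background 1.47%), the CRE at 2 (2.32%) and the EGR site at 2, *Fosb* and *Nr4a1* (7.23%), while the AP-1 and ETS sites were at none (6.93% and 10.8%).

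The position of these motifs relative to the peaks could be compared at the starts that had one. At *Egr1* the peaks covered -973 to -787 and +325 to +511 relative to the start, and all 5 CArG matches, between -407 and -74, lay in the gap between them. At *Ier2* the peak covered -227 to -41, and the CRE, at -45 to -38, crossed its edge on the side of the start, as can be read in the sequence above. At *Fos*, with a CArG match at -309 to -300, *Fosb*, with one at -272 to -263, *Egr3*, with one at -602 to -593, and *Dusp1*, with a CRE at -96 to -89, there was no peak of either antibody within 1 kb of the start.

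**Figure D5:**
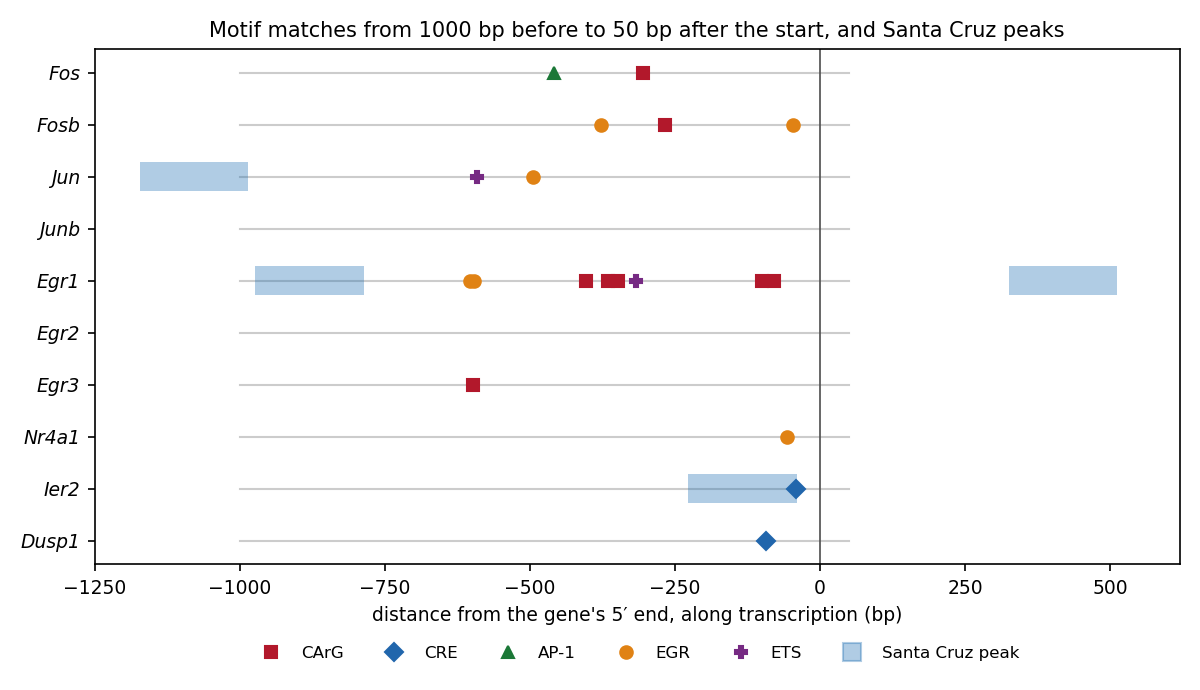
Motif matches (symbols) and Santa Cruz peaks (shaded bars) from 1000 bp before the start of each member onwards, with the distance from the start in bp on the x axis. The CArG matches of *Egr1* lie between its peaks, and the CRE of *Ier2* lies at the edge of its peak at -41.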

How the data were processed

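Per the labels and the study's methods, the authors aligned ChIPseq reads to mm9 (NCBIM37), called TOP2B peaks per library with HOMER and kept those at least 10-fold over IgG at an FDR of 1%. To raise confidence, the study then defined its TOP2B peaks as those called with both antibodies. Here the list of each antibody was used as deposited, so a peak of 1 list alone falls outside that definition. The submitters' processing notes name Bowtie 1.2.0, HOMER and deepTools. The deposited lists give positions (widths of 187 bp for Santa Cruz and 195 bp for Novus). The deposited score column holds 0 throughout, so peak strength and a stricter list could not be examined. In the Santa Cruz list 1 peak, outside the loci, is entered 2 times.

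Gene positions, starts and features were taken from GENCODE M1, on the same build. For counts at starts, a start was the annotated start of any transcript of the gene. For features and the nearest protein-coding start, only starts of protein-coding transcripts were used. Start and end proximity meant a centre within 1 kb, and common peaks shared at least 1 bp. A CpG-rich start had a GC content of at least 55% and a CpG ratio of at least 0.65 over 500 bp. Each gene was compared with all 22367 protein-coding genes. All 10 members and every peak in their windows are named, and of the other lists, genes with a common peak at a start; the further genes named there were picked after their values were seen. The members and lists were chosen with earlier results of these data known. The lists were 48 other immediate early genes, 22 regulators and TOP2 repair genes, and 80 ribosomal protein genes, with *Srf* in both of the first 2. Intervals are exact (Clopper-Pearson) at 95% and cover counting error only. The search over 1000 bp, the CpG-rich background and the Santa Cruz count with extended lists were added after seeing the data. The counting was tested on simulated data. Versions were samtools 1.23.1, matplotlib 3.10.9, Python 3.11.15, pyfaidx 0.9.0.4 and scipy 1.17.1.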

Additional observations from a re-analysis of the deposited data

How the results depend on the processing

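The number of Santa Cruz peaks at the loci followed the window, with 8 at 10 kb, 25 at 50 kb and 43 at 100 kb in place of 14 at 25 kb. Novus peaks rose from 0 to 1 at 50 kb, near 1 gene, and to 5 at 100 kb, near 3 genes. Genes with a Santa Cruz peak at the start numbered 4 within 5 kb in place of 2 within 1 kb, and genes with one at the 3′ end numbered 3 within 2.5 kb (*Jun*, *Junb* and *Ier2*) and 4 within 5 kb in place of 0. In genes this short, the latter include peaks that lie nearer to a start, as at *Jun*, *Ier2* and *Egr1*, while at *Junb* the peak was nearer to the 3′ end. The shares of all protein-coding genes with a peak at these distances from a start or 3′ end were not determined. The other 32 of 42 alternatives stayed within 1.5 times the reported count. Common peaks remained at 0 under every overlap rule tried, including both lists extended by 1 kb, and in windows of 10 and 50 kb. Most of these zeros were fixed in advance, since no Novus peak was within 25 kb of a member. The nearest one to a Santa Cruz peak of the loci was 71.8 kb away. For common peaks only the window of 50 kb could have differed. Novus counts in the window of 10 kb, at starts and at 3′ ends were equally fixed, and the count of 32 includes these. A window of 100 kb was not run for common peaks, and it would include the Novus peak 63.0 kb from *Fosb*, which overlaps a Santa Cruz peak. With 10 genes, 1 library per antibody and no peak heights, a gene without a peak is not shown to lack TOP2B. No paired analysis was possible because there was 1 library per antibody and no result comes from a test.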

Other observations

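Regulators of immediate early genes and genes of TOP2 break repair (22 genes) had a Santa Cruz peak in the window in 15 cases (68.2%) and a Novus peak in 5 (22.7%), *Elk4*, *Mkl1*, *Crem*, *Rps6ka1* and *Top2b*, beside 55.1% and 19.3% of all protein-coding genes. The peak was common to both antibodies for 3 of them, *Elk4*, *Mkl1* and *Rps6ka1* (13.6% of the 22 genes, beside 6.22% of all protein-coding genes). The exact 95% intervals were 45.1 to 86.1% for Santa Cruz, 7.82 to 45.4% for Novus and 2.91 to 34.9% for common peaks. Each holds the share of all protein-coding genes and that of genes with a CpG-rich start (69.8%, 26.6% and 8.67%). *Top2b* itself, *Crem* and *Mkl1* had a Novus peak within 1 kb of a start, and *Mkl1*, *Mapk3*, *Trim28*, *Xrcc6* and *Atm* a Santa Cruz peak (13.6% and 22.7% of the 22 genes, beside 5.32% and 13.1% of all protein-coding genes). For genes with a CpG-rich start the shares were 9.07% and 20.8%. The exact intervals of the 22 genes, 2.91 to 34.9% and 7.82 to 45.4%, hold both backgrounds. *Mkl1*, which encodes a coactivator of SRF, was the only one of the 22 with a common peak at a start. No share of all protein-coding genes was determined for this measure. Its Novus peak on chromosome 15, at 80935274 to 80935468, was 142 bp from the start and shared 31 bp with the Santa Cruz peak at 80935438 to 80935624.

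Ribosomal protein genes (80 genes) were picked by symbol, and their length and transcription were not examined. They had a Santa Cruz peak in the window in 54 cases (67.5%) and a Novus peak in 25 (31.2%). The shares were 55.1% and 19.3% of all protein-coding genes, and 69.8% and 26.6% of those with a CpG-rich start. At starts the counts were 20 (25%) and 11 (13.8%), beside 13.1% and 5.32% of all protein-coding genes. For genes with a CpG-rich start these shares were 20.8% and 9.07%, each inside the exact interval of the ribosomal protein genes (16.0 to 35.9% and 7.07 to 23.3%). Within 1 kb of the 3′ end the counts of ribosomal protein genes were 6 (7.5%) and 3 (3.75%), beside 2.42% and 0.443% of all protein-coding genes. The exact intervals, 2.80 to 15.6% and 0.780 to 10.6%, lie above these backgrounds, but the difference was not tested. *Rpl4* and *Rps19* are in both counts. Whether the peaks lie nearer to a start than to the 3′ end was not examined. A peak common to both antibodies was at the start of *Rps13*, where the peaks on chromosome 7 shared 79 bp. The share of all protein-coding genes with such a peak at a start was not determined.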
